A study of Mus musculus with 7 samples.

Results

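Histone genes were taken as all array probes whose gene name in the scanner files is that of a histone, either of the clustered genes (Hist1h to Hist4h) or of the genes outside the clusters (H1f, H2af and H3f). This rule found 92 probes for 71 gene names, of 56605 probes and 37074 names on the array. RNA came from a whole abdominal mammary gland, freed of its lymph nodes, of nulliparous FVB females aged 20 to 25 weeks and in diestrus. The 3 wild-type mice were compared with 4 PRA transgenic mice, which carry a GAL-4 gene under the murine cytomegalovirus promoter together with an extra gene for the A form of the progesterone receptor behind GAL-4 binding sites. That promoter is not restricted to mammary epithelium, so the transgene need not be confined to that tissue. The gland RNA of 1 animal per array carried the dye Cy5, and a common reference pooled from 11 mouse cell lines (Universal Mouse Reference RNA) carried Cy3 on every array. A level is given throughout as the log2 ratio of gland to reference, and a difference as the log2 fold change of PRA transgenic minus wild type.

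Histones are the proteins around which DNA is wound. A nucleosome core holds H2A, H2B, H3 and H4, and the linker histone H1 binds where the DNA enters and leaves it. Most genes for these proteins lie in clusters and are replication-dependent, because they are transcribed mainly in S phase to package new DNA. Their mRNAs typically end in a stem-loop, bound by the protein SLBP, and not in a poly(A) tail. Genes outside the clusters, such as H2afz (H2A.Z), H3f3a and H3f3b (both H3.3), are expressed through the cell cycle and give polyadenylated mRNAs. Some clustered genes can also give polyadenylated mRNAs, as seen in tissues with few dividing cells. The labeling kit starts from an oligo-dT primer, so the array mostly reports RNA with a poly(A) tail or an A-rich stretch, and the levels of the clustered genes are to be read with that in mind.

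The probe sequences show whether a probe holds a stem-loop or a polyadenylation signal. Which form of the mRNA gave the values of a probe was not tested. A perfect stem of 6 bases starting with GG around the loop TTTC was found in 5 of the 92 histone probes (5.43%) and in 6 of all 56605 probes (0.0106%). The polyadenylation signal AATAAA was found in 5 histone probes (5.43%) and in 9.77% of all probes. Hist2h2bb, a gene of the H2B family (H2bc18 in current naming), has 1 probe of each kind, and 30 bases of each are shown because the results for Hist2h2bb turn on them. The capitals mark the stem-loop in the first and the AATAAA signal in the second.
Hist2h2bb stem-loop probe: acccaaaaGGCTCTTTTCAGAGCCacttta
Hist2h2bb downstream probe: gttgtcagtttgAATAAAgacagagaaact
The stem-loop probe lies on the plus strand of mm9 at chr3:96074056-96074115 and the downstream probe at chr3:96082754-96082813, which is 8.70 kb further on. The RefSeq gene H2bc18 is 493 bases long in GRCm38.p6, which is shorter than this distance, and the files give the downstream probe the name of a cDNA clone of the gene. In all 5 stem-loop probes (Hist1h2bf, Hist1h3a, Hist1h3i, Hist1h4m and Hist2h2bb) the gland was below the reference on all 7 arrays, with mean log2 ratios from -2.70 to -1.92. Of all replication-dependent probes tested, 69.1% were below the reference on all 7 arrays. For the 5 probes with AATAAA (H2afz, Hist1h2ag, Hist2h2bb, Hist2h2be and Hist3h2ba) the means ran from -1.27 to 0.19.

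Other probes may not keep related genes apart. Of the histone probes, 19 shared at least 40 bases in the same order with another histone probe of a different gene, in an alignment without gaps. The H2A family was the closest, as 3 of its probes show, with the letters that differ from the Hist1h2af probe in capitals. They end in a stop codon (TAA or TGA), so they lie in coding sequence.
Hist1h2af: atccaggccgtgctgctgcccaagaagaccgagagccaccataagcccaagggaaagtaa
Hist1h2ak: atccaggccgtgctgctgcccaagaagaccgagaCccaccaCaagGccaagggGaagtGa
Hist2h2aa2: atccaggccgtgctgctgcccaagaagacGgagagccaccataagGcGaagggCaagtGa
These probes lie at chr13:23626113-23626172 (plus strand), chr13:21845304-21845363 (minus strand) and chr3:96043781-96043840 (minus strand) of mm9, and each of the latter differs from the first at 5 of 60 bases. Hist1h2aa, an H2A gene known from testis, is a second case. Its probe and that of Hist2h2ac overlap in 58 bases, of which 54 are the same, and the capitals mark the 4 that differ.
Hist1h2aa: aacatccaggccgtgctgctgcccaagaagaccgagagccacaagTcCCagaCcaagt
Hist2h2ac: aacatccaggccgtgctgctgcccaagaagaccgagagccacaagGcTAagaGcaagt
The Hist1h2aa probe (chr13:24026659-24026718, plus strand) had log2 ratios of -1.29, -1.31 and -0.49 in wild-type and -1.02, -0.94, -1.23 and -1.53 in PRA transgenic glands. The Hist2h2ac probe (chr3:96024378-96024437, minus strand) had -1.24, -1.18 and -0.51 in wild-type and -0.91, -0.83, -1.11 and -1.43 in PRA transgenic glands. These profiles are nearly the same array by array (r = 0.99 over the 7 arrays, which both probes share), so the level listed under the testis gene cannot be told apart from that of other H2A genes. In all, 9 tested probes of the H2A family, the variant H2afj among them, shared at least 40 bases with another of the 9. The correlations of these pairs over the 7 arrays ran from 0.59 (Hist1h2an with Hist2h2aa2) to 0.999, with a median of 0.96. Not all of these profiles were therefore the same, but single H2A and H4 genes are uncertain in what follows.

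Of the 92 histone probes, 78 for 61 genes were tested, because their Cy5 signal exceeded background clearly on all arrays of 1 genotype or both, and 70 of these were well above background on all 7 arrays. The 14 others included the only probes of 10 genes, among them Hist1h2ac, Hist1h2ad, Hist1h2ae and Hist2h2ab of the H2A family and the germ cell forms H1fnt, H2afb1 and H2afb2. All arrays lay on 1 slide, with wild-type in row 1 and PRA transgenic in row 2, so the row and the genotype cannot be told apart. Between 62.7% and 66.2% of all probes were well above background in Cy5 on the wild-type arrays and between 56.6% and 60.2% on the PRA transgenic arrays. In Cy3, which carried the same reference RNA on every array, these ranges were 53.2% to 54.0% and 47.2% to 50.6%. The lower detection on the PRA transgenic arrays was therefore not limited to the gland RNA. No spot was saturated. The list means of the markers of luminal epithelium, basal epithelium and white adipocytes were above the reference on all arrays, at 2.80 to 3.67, 2.57 to 2.97 and 5.45 to 6.14. Single markers such as Krt8 were below it on some arrays. The list mean of the skeletal muscle markers was high on wild-type replicates 1 and 3 (2.29 and 3.14) and on PRA transgenic replicate 4 (3.22). It was below the reference on the other arrays, though not for every marker. T cell markers had their highest list mean on wild-type replicate 1 (1.42). Their part in the results below was not tested. In tissue RNA, fewer cells of a type and less RNA per cell cannot be told apart.

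Most histone genes were lower in the gland than in the reference. Of the 78 probes tested, 53 (67.9%) were below the reference on all 7 arrays and 8 (10.3%) above it, against 32.0% and 33.1% of all 34288 probes tested. Among the 55 replication-dependent probes 38 were below on all arrays, and among the 20 replication-independent probes 14 were. No dyes were swapped, so a dye effect on a single ratio is part of these levels.

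**Figure D1:**
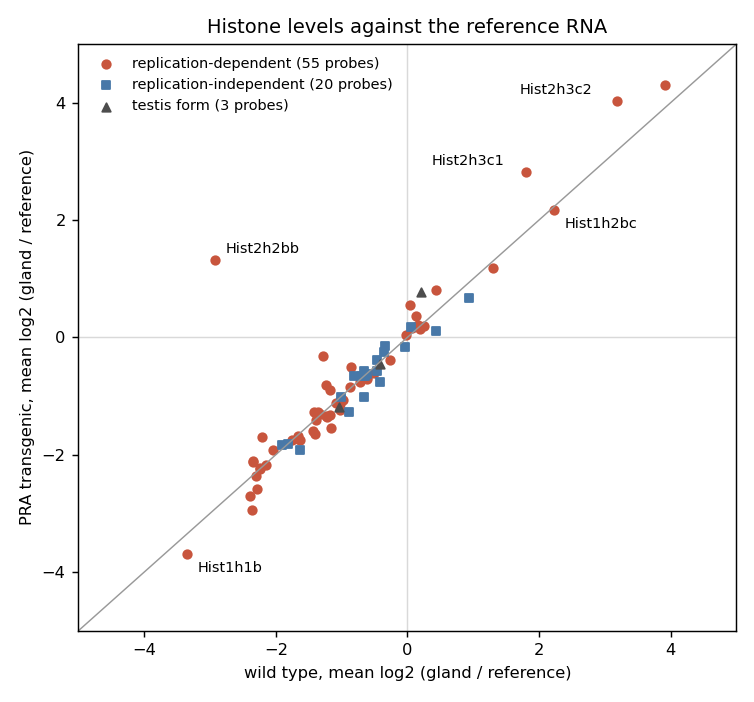
Mean log2 ratio of gland to reference in wild-type (x axis) and PRA transgenic glands (y axis) for the 78 histone probes tested, where the diagonal marks equal levels. Most points lie below 0 on both axes and near the diagonal, while the downstream probe of Hist2h2bb stands far above it, at -2.93 in wild-type (well above background on 1 array) and 1.31 in PRA transgenic glands.

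The linker histone Hist1h1b (H1.5, H1f5 in current naming), which is expressed with DNA replication, was the lowest of all. Its log2 ratios were -3.66, -4.69 and -1.72 in wild-type and -4.60, -2.75, -3.66 and -3.75 in PRA transgenic glands, which is 11.7-fold below the reference on average. Wild-type replicate 3 was the highest array and wild-type replicate 2 the lowest, so the genotypes overlapped. The brightest linker histone probe, Hist1h1e (H1.4), averaged -1.75 over the 7 arrays, and the brightest H3 probe of the clusters, Hist1h3d, averaged -1.15. The brightest probes of H2A (Hist2h2aa2), of H4 (Hist1h4d) and of the H2A variants (H2afj) averaged -0.57, -0.65 and -0.53.

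A few replication-dependent genes went the other way. Hist1h2bc, the brightest H2B probe, was above the reference on every array, with 1.97, 2.80 and 1.90 in wild-type and 2.58, 2.04, 2.40 and 1.65 in PRA transgenic glands, or 4.57-fold on average. The genotypes overlapped throughout that range. Hist2h3c2 and Hist2h3c1, clustered H3 genes described below, were 12.7-fold and 5.19-fold above the reference on average. Hist2h3b, the neighboring H3 gene in the same cluster, was 4.64-fold below it.

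Comparison of the genotypes addressed whether extra PRA changes histone expression in the gland. No histone probe had a p under 0.05 in limma after Benjamini-Hochberg (BH) adjustment over all 34288 probes, of which 0.0117% passed, and 7 of the 78 had an unadjusted P under 0.05. With an unadjusted P under 0.05 and a difference of 1.5-fold or more, 3 histone probes (3.85%) were higher in PRA transgenic glands, against 1.94% of all probes tested, and 0 were lower, against 2.59%. At an unadjusted P under 0.05 of any size, 4 were higher and 3 lower, against 4.54% and 4.48% of all probes. The levels of the genotypes did not overlap for 3 higher and 3 lower histone probes, against 5.42% and 4.53% of all probes. The counts over the histone probes as a whole were therefore close to those over the array. The median log2 fold change was -0.02 for the replication-dependent probes (25 higher, 30 lower) and -0.01 for the replication-independent ones (8 higher, 12 lower), against 0.02 over all probes tested.

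**Figure D2:**
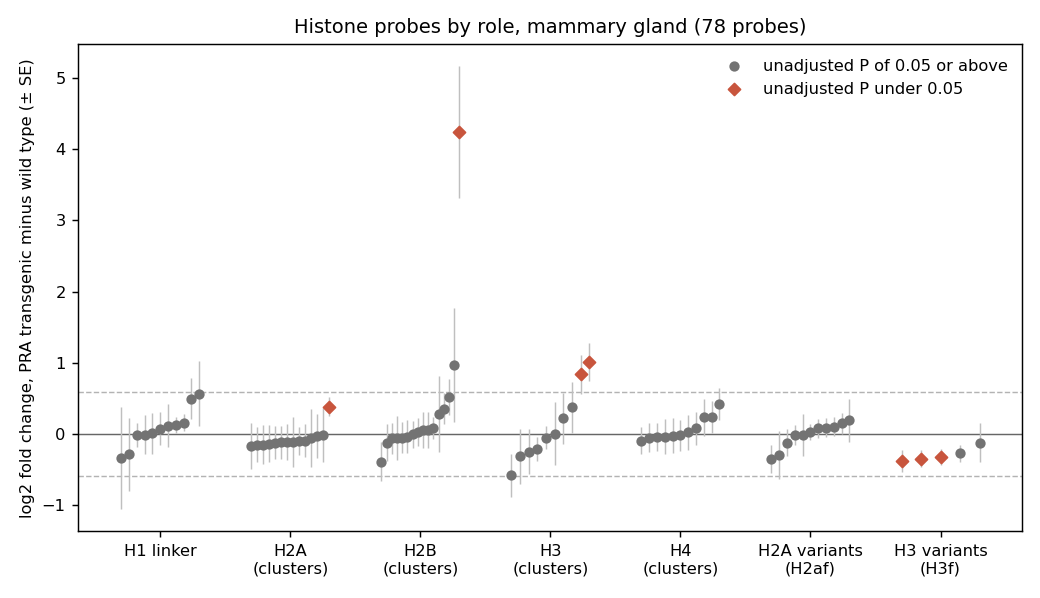
Log2 fold change (PRA transgenic minus wild type, bars are the standard error) of each of the 78 histone probes, grouped by role. The dashed lines mark 1.5-fold, and the diamonds mark unadjusted P under 0.05. The 3 diamonds above the upper line are probes of Hist2h2bb, Hist2h3c1 and Hist2h3c2, and the 3 diamonds among the H3 variants lie between -0.38 and -0.32.

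All 3 probes past 1.5-fold belong to the Hist2 cluster, a group of histone genes that spans 58.6 kb on chromosome 3 of mm9 (first probe at 96024171, last at 96082813). Of its 14 probes 12 were tested, 8 with a positive and 4 with a negative log2 fold change. The median of the 12 was 0.14, against -0.05 for the 41 tested probes of the Hist1 cluster on chromosome 13. The Hist2 cluster was singled out for the 3 probes, which are among the 12, so these figures only describe it and are not separate evidence. H2A probes of both clusters are also alike in sequence.

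The downstream probe of Hist2h2bb had log2 ratios of -0.45, -3.57 and -4.77 in wild-type and 1.46, 0.85, 1.21 and 1.73 in PRA transgenic glands. Every PRA transgenic array was above the reference and every wild-type array below it. The log2 fold change was 4.24 (standard error, SE, 0.92, limma adjusted p = 0.342) with the deposited signals. Its Cy5 signal was well above background on all 4 PRA transgenic arrays but on only 1 of the 3 wild-type arrays, replicate 1, so it was tested only through the genotype in which it was high, and the size is not a measured fold. After another background correction (normexp, then loess) it was 1.78, and without wild-type replicate 1 it was 5.48 (limma adjusted p = 0.0444), which then set the PRA transgenic arrays against wild-type arrays of which none was well above background. The limma adjusted p ranged from 0.0444 to 0.639 over the alternatives. Wild-type replicate 1, the highest wild-type array here, was also the array with the highest T cell markers. On the PRA transgenic arrays the list mean of the T cell markers was between -1.11 and -0.62. The part of these markers in this result was not tested.

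The stem-loop probe of the same gene was below the reference on all 7 arrays. It had -2.01, -2.81 and -1.82 in wild-type and -1.86, -1.39, -1.79 and -1.74 in PRA transgenic glands. The genotypes overlapped, and the log2 fold change was 0.52 (SE 0.25, limma adjusted p = 0.603). Without wild-type replicate 3 it was 0.72 and met P under 0.05 and 1.5-fold. After normexp and loess the stem-loop probe was at 0.48 and the downstream probe at 1.78. Whether both read 1 transcript unit was not analysed here.

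Hist2h3c1 (H3c14 in current naming), an H3 gene, was higher in every PRA transgenic gland. Its probe (chr3:96052051-96052110, plus strand) had 1.75, 2.18 and 1.45 in wild-type and 3.40, 2.54, 2.70 and 2.60 in PRA transgenic glands, so the genotypes did not overlap. The log2 fold change was 1.02 (2.02-fold, SE 0.27, limma adjusted p = 0.405). Both channels were well above background on all 7 arrays. Over the alternatives it stayed between 0.82 and 1.21.

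Hist2h3c2 (H3c15), an H3 gene on the opposite strand of the cluster, gave a similar but less even picture. Its probe (chr3:96042034-96042093, minus strand) had 2.86, 3.73 and 2.97 in wild-type and 4.30, 3.81, 4.35 and 3.63 in PRA transgenic glands. Wild-type replicate 2 was above the lowest PRA transgenic array. The log2 fold change was 0.84 (1.79-fold, SE 0.28, limma adjusted p = 0.463). It was 0.54 in Cy5 alone, where the reference signal was 0.30 lower on the PRA transgenic arrays on the log2 scale, and 0.54 after normexp and loess. The probe left the class of P under 0.05 and 1.5-fold in both, and without wild-type replicate 1 (0.67) or replicate 3 (0.73). A second probe of this gene gave 0.37 (limma adjusted p = 0.808), or 0.88 in Cy5 alone, and its reference signal was never well above background.

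**Figure D3:**
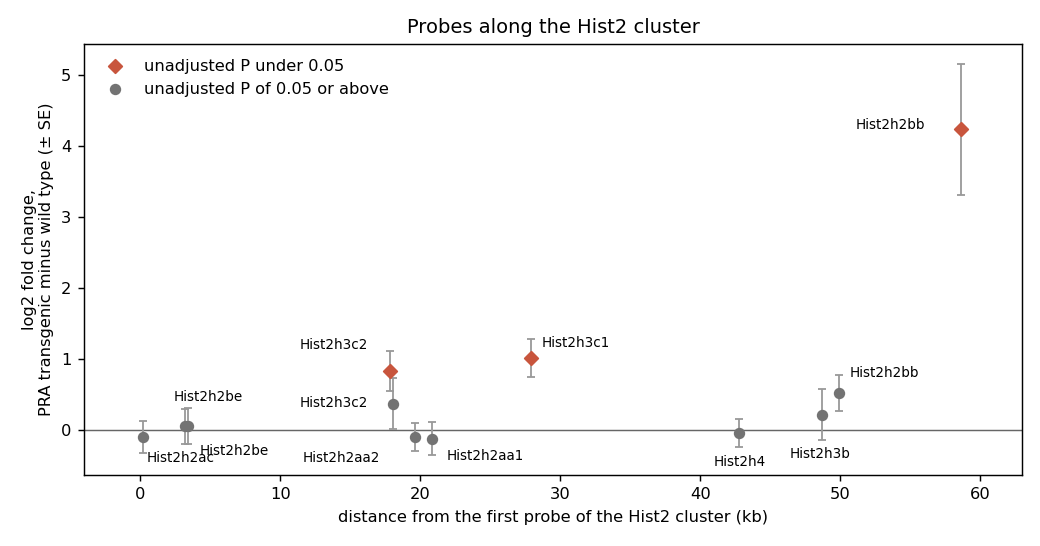
Log2 fold change (bars are the standard error) of the 12 tested probes of the Hist2 cluster against their distance in kb from its first probe. The probes of the H2A genes and of Hist2h2be and Hist2h4 lie near 0, the H3 probes Hist2h3c2 and Hist2h3c1 at 0.84 and 1.02, and the 2 probes of Hist2h2bb at 0.52 and 4.24.

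The tested probes of the other genes of the Hist2 cluster had smaller values. The 2 probes of Hist2h2be, an H2B gene, were at 0.06 each, Hist2h4 was at -0.04, and the H2A probes Hist2h2aa1, Hist2h2aa2 and Hist2h2ac were between -0.12 and -0.09. The probes of Hist2h2aa2 and Hist2h2ac share at least 40 bases with probes of Hist1 genes, so their values may not be of these genes alone. Hist2h3b, the remaining H3 gene, was at 0.22 (SE 0.36), which is too imprecise to set it apart from Hist2h3c1 or Hist2h3c2.

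Outside that cluster, 1 replication-dependent probe was higher at an unadjusted P under 0.05, that of a Hist3 gene on chromosome 11. For Hist3h2a, an H2A gene (H2aw), 1 of its 2 probes had 0.32, 0.65 and 0.31 in wild-type and 0.87, 0.74, 0.78 and 0.87 in PRA transgenic glands. These did not overlap, and the log2 fold change was 0.39 (SE 0.13, limma adjusted p = 0.463). The other probe of Hist3h2a was at -0.01 and had a mean level of -1.68, where the first had 0.65. For Hist3h2ba, an H2B gene (H2bu2), 1 of its 2 probes was at 0.97 (SE 0.80, limma adjusted p = 0.769). This probe was at 0.10 without wild-type replicate 3, which lay at -3.02. Its Cy5 signal was well above background on all 4 PRA transgenic arrays but on only 2 wild-type arrays. It was therefore tested only through the genotype in which it was higher, and the size is not a measured fold. The other probe of Hist3h2ba, well above background on all 7 arrays, was at 0.35 (SE 0.22).

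The H3.3 genes, H3f3a and H3f3b, code for the same protein, the form of H3 that is placed into chromatin outside of DNA replication. Of their 5 probes, 4 were well above background on all 7 arrays. These 4 were lower in value in PRA transgenic glands, against 45.8% of all probes tested. They are repeat probes of only 2 genes, read on the same arrays, and not independent members. The log2 fold changes of the 4 ran from -0.38 to -0.27, and none reached 1.5-fold. The 3 histone probes that were lower at an unadjusted P under 0.05 (3.85%, against 4.48% of all probes tested) are all of these genes. The H3f3a probe A_55_P2078266 had 0.35, 0.38 and 0.57 in wild-type and 0.05, 0.18, 0.06 and 0.15 in PRA transgenic glands. The H3f3b probe A_52_P61786 had -0.71, -0.75 and -0.54 in wild-type and -0.98, -0.94, -1.15 and -0.97 in PRA transgenic glands. In both, every PRA transgenic gland lay below every wild-type gland. The log2 fold changes were -0.32 (SE 0.11, limma adjusted p = 0.469) and -0.35 (SE 0.12, limma adjusted p = 0.463). The brightest H3f3a probe, at -0.27 (SE 0.12), also did not overlap between genotypes. The second H3f3b probe was at -0.38 (SE 0.16, limma adjusted p = 0.542), with overlapping genotypes. In Cy5 alone these 4 probes were between -0.34 and -0.24. The last of the 5, of H3f3a, was at -0.12. It was never well above background on the PRA transgenic arrays, so it was tested only through wild type, where it was higher, and is not interpreted.

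**Figure D4:**
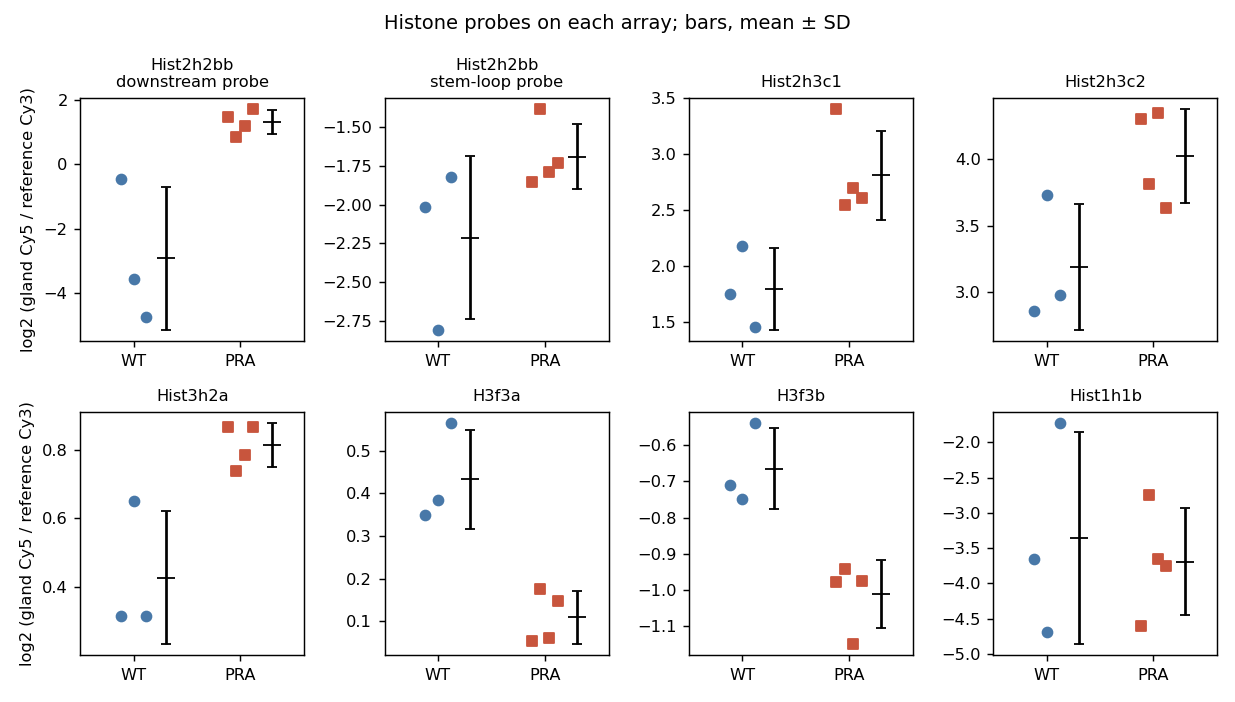
Log2 ratio of gland to reference on each array for 8 histone probes, with wild-type arrays as circles, PRA transgenic arrays as squares, and the mean ± SD beside them (n = 3 and n = 4). Each panel has its own scale. The genotypes are apart for the downstream Hist2h2bb probe, Hist2h3c1, Hist3h2a, H3f3a and H3f3b, and overlap for the Hist2h2bb stem-loop probe, Hist2h3c2 and Hist1h1b.

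The remaining roles showed small values. Among the 14 H2A probes 13 had a negative log2 fold change, but their median was only -0.11 and many of them are alike in sequence. The 11 H4 probes ran from -0.09 to 0.43, with Hist1h4i at the top (SE 0.22, limma adjusted p = 0.627). The 11 linker histone probes ran from -0.34 (Hist1h1b) to 0.57 (Hist1h1t, a testis form whose reference signal was never well above background), with Hist1h1c (H1.2) at 0.50 (SE 0.29). The H2A variants ran from -0.34 (H2afv) to 0.19, and the 5 probes of H2afy (macroH2A1) were between 0.08 and 0.19. The most negative values besides H3f3b were those of dim probes, Hist1h3a at -0.57 (SE 0.30, limma adjusted p = 0.63) and Hist1h2bg at -0.39 (SE 0.28, limma adjusted p = 0.732). Both were well above background on all 3 wild-type arrays, but on only 2 and 1 of the PRA transgenic arrays. They were therefore tested only through the genotype in which they were higher, and the sizes are not measured folds. In Cy5 alone they were at -0.66 and -0.06. Hist1h3a was at -0.09 after normexp background correction and loess.

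Differences among mice of the same genotype were larger than those between genotypes for most replication-dependent probes, as they were for most probes on the array. The SD within genotypes exceeded the size of the log2 fold change for 45 of the 55 probes (81.8%). This held for 14 of the 20 replication-independent probes (70.0%) and for 67.5% of all probes tested. The median of the 55 replication-dependent probes was -1.27, -1.38 and -0.72 in wild-type and -1.20, -0.90, -1.28 and -1.26 in PRA transgenic glands. Wild-type replicate 3 was the highest array and PRA transgenic replicate 2 the next. For 28 of the 55 probes, and for 12 of the 14 H2A probes, wild-type replicate 3 was the highest of the 7 arrays, against 14.2% of all probes tested. This array was also the highest for 9 of the 20 replication-independent probes, whose medians ran from -0.67 to -0.52.

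Markers of proliferation had the same highest and lowest arrays as the replication-dependent probes, wild-type replicates 3 and 2, but not the same order between. The mean log2 ratio of 23 such genes, among them Mki67, Top2a, Pcna and the Mcm genes, was -2.76, -3.34 and -1.64 in wild-type and -3.10, -2.10, -2.43 and -2.85 in PRA transgenic glands. All 23 were highest on wild-type replicate 3, and PRA transgenic replicate 2 had the next highest mean. Between genotypes the median log2 fold change of the 23 was -0.01, with 10 higher and 13 lower. At an unadjusted P under 0.05 there were 0, against 4.54% (higher) and 4.48% (lower) of all probes tested, so a count of 0 among 23 says little. Their part in the histone levels was not tested. Without wild-type replicate 3 the median log2 fold change of the replication-dependent probes was 0.21, with the array that held the highest wild-type values gone.

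**Figure D5:**
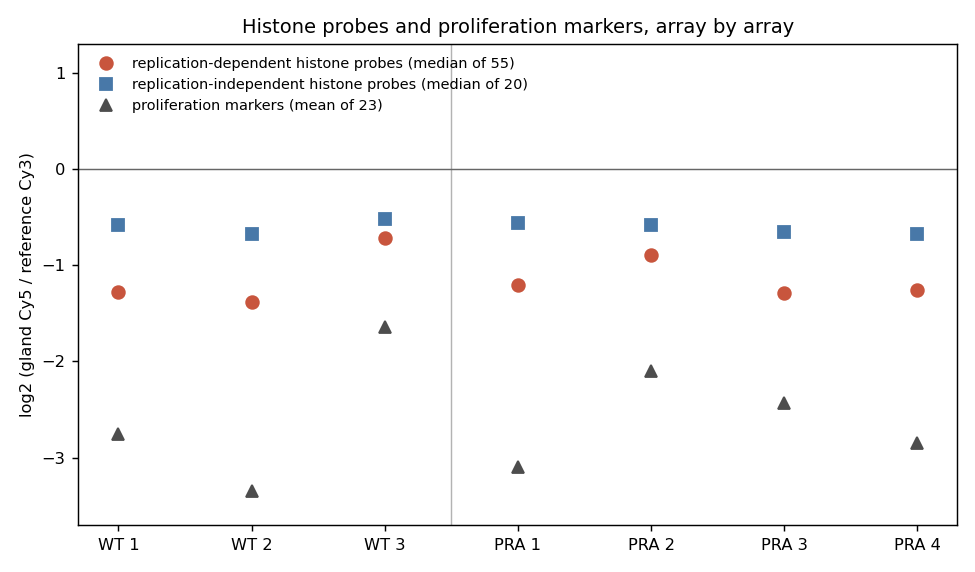
Median log2 ratio of the replication-dependent (circles) and replication-independent (squares) histone probes and mean log2 ratio of the proliferation markers (triangles) on each array. Wild-type replicate 3 is highest for all 3, at -0.72, -0.52 and -1.64, and the replication-independent probes vary least.

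Genes that act on histone mRNA or protein were examined as a list for each. Of 13 genes for transcription, 3′ end formation and decay of histone mRNA 12 were tested, 8 with a positive and 4 with a negative value. At an unadjusted P under 0.05 there were 0 of the 12, against 4.54% (higher) and 4.48% (lower) of all probes tested. For Slbp, which binds the stem-loop, the log2 fold change was 0.05 (SE 0.20), and for Npat, the S phase activator of clustered histone genes, it was -0.31 (SE 0.17). Of 20 histone chaperones and related factors all were tested. At an unadjusted P under 0.05 of any size 0 were higher and 2 lower (4.48% of all probes were lower), and 1 of these was past 1.5-fold (2.59% of all probes). This was Supt16, a subunit of the FACT chaperone, which had -0.81, -0.23 and -0.33 in wild-type and -1.19, -1.45, -1.07 and -1.23 in PRA transgenic glands. These did not overlap, and the log2 fold change was -0.78 (SE 0.18, limma adjusted p = 0.359). The other was Daxx, a chaperone of H3.3, at -0.41 (SE 0.16, limma adjusted p = 0.524), also without overlap. Its closest arrays were wild-type replicate 3 at -0.07 and PRA transgenic replicate 1 at -0.09. Of all probes tested, 4.53% did not overlap in this direction. The median over the 20 was -0.12, against 0.02 over all probes tested. Of the 20 values 5 were positive and 15 negative, where 45.8% of all probes were negative.

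The promoters of the genes share motifs that the choice of members did not use. RefSeq promoters of 300 bases (GRCm38.p6) were matched for 62 of 71 current symbols and searched on both strands. CCAAT was present in 51 of the 62 (82.3%), against 37.4% of all 32851 promoters, and in all 17 H2A, 11 H2B and 7 H3 promoters of the clusters but in 2 of 8 H4 promoters. The octamer ATTTGCAT was present in 13 (21.0%), against 1.74% of all promoters. It was found in 7 of the 17 H2A and 5 of the 11 H2B promoters and in 0 of the clustered H3 and H4 promoters. TATAAA was present in 30 (48.4%), against 13.6% of all promoters. A match is not a bound site.

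The promoters of H2bc18 (Hist2h2bb), the gene that both probes above are named for, and of H3f3b, an H3.3 gene with values the other way, are shown (GRCm38.p6) as the 250 bases before the start site, with CCAAT, ATTTGCAT and TATAAA in capitals on either strand.
H2bc18, chr3:96269450-96269699, plus strand: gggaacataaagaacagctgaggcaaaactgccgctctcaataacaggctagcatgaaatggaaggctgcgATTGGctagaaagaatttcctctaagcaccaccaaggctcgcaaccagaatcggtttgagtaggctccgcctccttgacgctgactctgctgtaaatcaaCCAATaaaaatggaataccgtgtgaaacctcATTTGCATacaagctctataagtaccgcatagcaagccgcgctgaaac
H3f3b, chr11:116024505-116024754, minus strand: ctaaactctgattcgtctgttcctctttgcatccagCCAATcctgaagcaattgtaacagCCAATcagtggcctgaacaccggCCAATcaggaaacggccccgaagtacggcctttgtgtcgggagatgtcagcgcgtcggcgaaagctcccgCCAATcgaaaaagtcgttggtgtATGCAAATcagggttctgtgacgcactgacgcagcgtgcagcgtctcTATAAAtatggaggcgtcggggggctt
The H2bc18 promoter holds CCAAT 2 times and ATTTGCAT once, with no TATAAA. The H3f3b promoter holds CCAAT 4 times, the octamer once on the other strand and TATAAA once. No matches overlap in either.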

How the data were processed

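The authors deposited, array by array, the files of Agilent Feature Extraction (12.0 per the labels, 11.5.1.1 per the file headers), in which the processed intensity values had been background-subtracted and dye-normalized. The authors also deposited a table of log2 ratios centered on the median of the 7 arrays. Log2 ratios of Cy5 over Cy3 were taken from the intensities after control and outlier spots were removed, and were averaged over the spots of a probe. Genotypes were taken from the labels, and each array is 1 animal. Probes called well above background in Cy5 on all arrays of either genotype were tested with lmFit and eBayes of limma 3.58.1 (R 4.3.3), with Benjamini-Hochberg adjustment over all 34288 probes. Probe positions are those of the files (mm9), and current symbols and promoters are those of RefSeq (GRCm38.p6), matched by accession for 73 of the histone probes, by older symbol for 18 and by symbol for 1. The number of arrays limits the precision.

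The members, gene lists and tests were chosen with earlier results of these data known. Named were histone probes with P under 0.05 and 1.5-fold, the 3 largest rises and falls in value and the brightest probe of each of 7 roles. The other named probes were chosen after their values were seen. In the gene lists each gene was represented by its brightest tested probe. The test was tried on data simulated from this comparison. Of 100 probes with a log2 change of 1 among 34288, 84 were found at P under 0.05 and 1.5-fold and 25 at an adjusted p under 0.05, and of 100 with a change of 2 these were 100 and 80. Of the unchanged probes 805 also met the first threshold and 5 the second. Alternatives were normexp (offset 50) with loess, the series table, no or a stricter filter, Cy5 alone, quantile normalization, the t-test of the methods, an intensity trend, a block on the replicate number, leaving out each array and the brightest probe per gene.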

Additional observations from a re-analysis of the deposited data

How the results depend on the processing

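The count of histone probes past P under 0.05 and 1.5-fold was 3 (3.85%, against 4.53% of all probes tested). It was 6 in Cy5 alone (7.69%, against 3.41%). These were both probes of Hist2h2bb and those of Hist2h3c1, H1fx, Hist1h3a and the second of Hist2h3c2, while the first of Hist2h3c2 dropped out. The count was 2 after normexp and loess (2.56%, against 0.957%), with both channels well above background (2.99%, against 1.90%) or with the brightest probe per gene. It was 3 under the replicate block (3.85%, against 7.13%) and between 2 and 4 when 1 array was left out. With 1 array left out, between 4.03% and 6.81% of all probes passed. The count with an adjusted p under 0.05 was 0 and became 1 (the downstream probe of Hist2h2bb) without wild-type replicate 1, with a range of 0 to 1 over the left-out arrays. With the t-test of the methods these counts were 3 and 0. The median log2 fold change ranged from -0.12 to 0.21 for replication-dependent and from -0.14 to 0.0232 for replication-independent probes over the left-out arrays, the extremes of the last being without wild-type replicate 2 and replicate 3. The former median also turned to 0.03 after quantile normalization and to 0.03 under the replicate block. Only the PRA transgenic glands have a replicate 4. The block therefore gave the same log2 fold changes as leaving that array out, and is not a separate estimate. Of 23 named probes 16 kept their direction under every alternative run. The other 7 had small values relative to their error and turned sign. The series table, the changed filters, the intensity trend and the t-test could hardly alter a log2 fold change. Several of the named probes were also chosen for large or already seen values, so a kept direction says little. Under the replicate block Hist1h1e was at -0.0327, Hist2h2aa2 at 0.0132, H2afj at 0.0014 and Hist1h2bc at 0.12. After normexp and loess Hist1h1e was at -0.0136, and after quantile normalization Hist1h2bc was at 0.0668. With 1 array left out, Hist1h1e ranged from -0.25 to 0.27, Hist2h2aa2 from -0.22 to 0.0410, H2afj from -0.22 to 0.0038, Hist1h2bc from -0.22 to 0.23, Hist1h4d from -0.19 to 0.17, Hist1h1b from -1.002 to 0.48 and Hist1h2aa from -0.29 to 0.12. Replicate numbers did not pair the arrays (correlations of their deviations 0.10, -0.30 and 0.04), and all of the arrays lay on 1 slide, so a slide block could not be fitted.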
